A study of Mus musculus with 6 samples.

Results

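The genes described here encode the adaptors and actin linkers of focal adhesions. They were taken by symbol from a list of 39 genes covering the kindlins, talins and vinculin, the ILK-PINCH-parvin complex, focal adhesion kinases and their scaffolds, tensins, filamins and alpha-actinins, the zyxin family with Ena/VASP proteins, and PDZ-LIM and related proteins. All 39 were found among the 37991 genes listed in each library, and 37 had enough reads to be tested. RNA came from mouse tumours of a cutaneous squamous cell carcinoma line, a cancer line of skin keratinocytes, with genotype Kindlin-1 WT (wild type, 3 libraries) or Kindlin-1 Null (knockout of Kindlin-1, 3 libraries). The comparison of null with wild-type tumours asks how expression differs when Kindlin-1 is missing. The labels name no treatment, time, age, host strain or number of clones. Reads were counted over whole tumours, so host cells are included, and fewer cells of a type cannot be told apart from less RNA per cell.

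Focal adhesions are the sites where integrins in the cell membrane are joined to actin filaments inside the cell. Talins and kindlins bind the cytoplasmic tails of beta integrins and switch the receptors to their active form. ILK, PINCH and parvin form a complex that binds kindlins, kinases such as FAK and Src signal from the site, and vinculin, filamins, alpha-actinins and LIM proteins tie it to actin or sense its tension. In skin, Kindlin-1 is the main kindlin of keratinocytes, and its loss in people causes Kindler syndrome, a blistering disease.

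Reads assigned to genes ranged from 161711 in wild-type library 2 to 31487255 in null library 2. A floor of 3 reads corresponds to 18.6 CPM, a count relative to all reads in genes, in wild-type library 2 and to 0.0953 CPM in null library 2, so low genes were poorly measured in the first. Levels of genes below are CPM with TMM scaling between libraries. The titles give wild-type libraries 1 and 2 one mouse number, and null libraries 2 and 3 another. The deposited file of null library 3 is named for a different mouse than its title, so the null pair is uncertain, and so are fits that add both pairs together or use mouse number as a random effect. Read as printed, a shared number means 1 mouse, though the labels do not explain it. Libraries of 1 mouse would not be independent samples, but the main test and each SD with n = 3 count every library separately. The p-values therefore measure the spread between libraries, which may be partly technical, and not the spread between mice. Keratinocyte markers were uneven. Krt1 and Dsg3 had 0 reads in all 6 libraries and Krt5 at most 5 reads in any, while Krt14 stood at 26.3 to 45.3 CPM in wild-type and 5.12 to 10.6 CPM in null libraries, and Trp63 at 4.68 to 27.6 CPM over all 6. Of the 8 tested markers, Krt14 and Perp fell and Krt15 rose. The summed level of 14 keratinocyte markers was 155 to 235 CPM in wild-type and 94.4 to 125 CPM in null libraries. For 7 fibroblast markers the sum was 6700 to 12279 CPM in wild-type and 11922 to 14434 CPM in null libraries, with Dcn and Lum higher and Col1a2 and Thy1 lower in edgeR (adjusted p = 0.0255, 0.000384, 0.0174 and 0.00501).

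Across the group, most tested genes other than Fermt1 did not pass the test named below, which does not show that they were unchanged. Of the 37 tested members, 2 rose in null tumours (Fermt2 and Enah) and 5 fell (Fermt1, Flnc, Pdlim7, Tns1 and Tgfb1i1), and 4 fell when Fermt1 itself was left aside (edgeR's quasi-likelihood test, Benjamini-Hochberg adjusted p under 0.05 over all genes). Over all 11887 tested genes, 2.26% rose and 3.52% fell, 5.79% in all. The other 30 tested members did not pass. The median log2 fold change of the members, null minus wild type, was -0.45, or -0.41 without Fermt1, against 0.01 over all tested genes. The fold change was below 0 for 25 of 37 members. After an adjustment for GC content and transcript length, described at the end, these values were -0.11, -0.07 and 20 of 37.

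**Figure D1:**
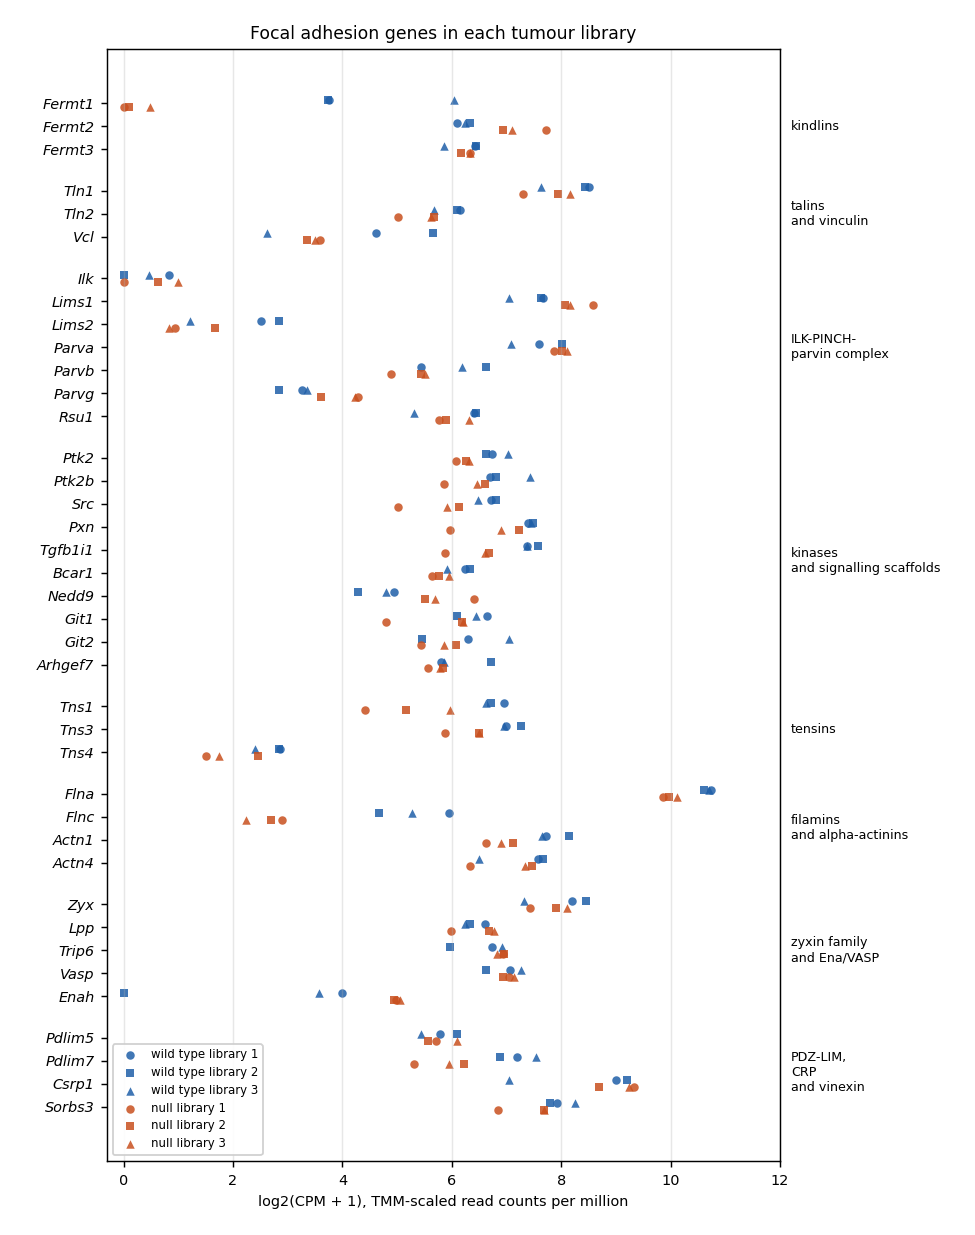
Level of each of the 39 genes in each library, as log2 of TMM-scaled CPM plus 1, ordered by role; blue marks wild type, orange marks null, and the marker shape gives the library. Fermt1, Flnc and Pdlim7 lie lower in all 3 null libraries, and Fermt2 and Enah higher.

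Among the kindlins, Fermt1 nearly vanished while Fermt2 was higher. Fermt1 (ENSMUSG00000027356), which encodes Kindlin-1, was counted at 12.5, 12.3 and 64.9 CPM in the wild-type tumours (16, 2 and 1040 reads) against 0, 0.0634 and 0.393 CPM in the null tumours (0, 2 and 2 reads). Wild-type library 3 stood far above the other wild-type libraries, and no library went against its genotype label. Its log2 fold change was -8.18 (SE 0.89, edgeR adjusted p = 0.000297), and the size rests on 4 null reads. The ratio of pooled wild-type to null levels was 571, with a 95% exact Poisson interval of 222 to 2100 that covers counting error only. Pooling weights libraries by depth, and 1040 of the 1058 wild-type reads came from wild-type library 3, so this ratio mostly describes that library. With 2 null reads left the ratio was 187 (51.6 to 1545) without null library 2 and 988 (273 to 8172) without null library 3. Leaving out wild-type library 3 gave -6.57 (edgeR adjusted p = 0.00959).

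Fermt2 (ENSMUSG00000037712) encodes Kindlin-2, the kindlin of most other tissues. Its level was 67.2, 79.9 and 75.0 CPM in wild-type and 210, 121 and 135 CPM in null libraries. Null library 1 was the highest, and the lowest null value lay above the highest wild-type value. Fermt2 rose with a log2 fold change of 1.08 (SE 0.28, edgeR adjusted p = 0.0398), but the adjusted p was between 0.0429 and 0.129 when 1 library was left out and stayed under 0.05 only without null library 2. When libraries with one mouse number were added together, it was 0.0889 for both pairs and 0.0711 for the wild-type pair alone, and the GC and length adjustment 0.0527. The fibroblast markers given above were split, and their part in the rise of Fermt2 was not tested. Fermt3, which encodes the blood-cell Kindlin-3, overlapped between groups at 84.3, 86.0 and 57.2 CPM in wild-type and 79.2, 70.8 and 80.1 CPM in null libraries (log2 fold change 0.08, SE 0.25, edgeR adjusted p = 0.879). The summed level of 11 leukocyte markers was 1809 to 2161 CPM in wild-type and 1556 to 2097 CPM in null libraries.

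Per kilobase of exon, so that the genes can be set side by side, Fermt2 made up 43.5, 47.5 and 40.4% of the kindlin message in the wild-type group and 74.7, 65.6 and 65.2% in the null group. Fermt1 made up 7.38, 6.65 and 31.9% in the wild-type libraries. The share of Fermt3 overlapped, at 49.1, 45.9 and 27.7% in wild-type and 25.3, 34.4 and 34.6% in null libraries. The summed kindlin level was 32.6 ± 3.01 CPM per kilobase in wild-type and 43.3 ± 9.68 in null tumours (SD, n = 3). By library it was 29.7, 32.4 and 35.7 in wild-type and 54.2, 35.6 and 40.0 in null tumours. So total kindlin message overlapped only between null library 2 and wild-type library 3, the library with the highest Fermt1. The Fermt3 share overlapped between the groups, and the shares of Fermt1 and Fermt2 did not. Shares within a family depend on each other.

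The promoters of the kindlins are shown as sequence only. Fermt1 is the gene knocked out in the null tumours, so its lower count is not read as a response of its promoter. The stretches run from 250 to 101 bases before the RefSeq start (GRCm38.p6, all on the minus strand), at chr2:132946137-132946286 for Fermt1, chr14:45530166-45530315 for Fermt2 and chr19:7019570-7019719 for Fermt3, written 5′ to 3′ on the gene's strand. Capitals mark a CArG box, the motif bound by serum response factor, a factor known for driving cytoskeletal genes.

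Fermt1: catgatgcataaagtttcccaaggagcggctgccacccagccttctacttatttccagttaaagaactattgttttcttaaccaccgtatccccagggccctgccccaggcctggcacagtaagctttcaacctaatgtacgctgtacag
Fermt2: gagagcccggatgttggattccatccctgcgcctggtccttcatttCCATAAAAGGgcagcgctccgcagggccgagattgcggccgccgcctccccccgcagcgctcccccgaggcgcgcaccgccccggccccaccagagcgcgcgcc
Fermt3: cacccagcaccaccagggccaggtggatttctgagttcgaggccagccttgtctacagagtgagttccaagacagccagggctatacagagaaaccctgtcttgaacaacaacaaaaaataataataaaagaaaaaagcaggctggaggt

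RefSeq windows of 250 bases before to 50 bases after the start were given for 30 of the 39 members. Searched on both strands, the CArG box was found in the windows of 4 of these 30 genes, Fermt2, Vcl, Trip6 and Rsu1, and of 1.81% of 27025 genes overall. The boxes of the other 3 are shown with 10 bases on each side, at chr14:20929161-20929190 (plus strand) for Vcl, chr5:137314221-137314250 (minus strand) for Trip6 and chr2:13271368-13271397 (minus strand) for Rsu1.

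Vcl: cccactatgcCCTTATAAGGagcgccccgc
Trip6: gtggtcgtctCCAAAATTGGggaggaaggg
Rsu1: aaacagttctCCTAATTTGGgaagtgtcag

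The box lies 204 to 195 bases before the start in Fermt2 and 227 to 218 bases before it in Vcl, and after the start in Trip6 (positions 2 to 11) and Rsu1 (29 to 38). Of the 4 genes Fermt2 passed the test, and the other 3 did not. The letters GGAATG, the core of the sites of TEAD factors, were found on either strand in the windows of 6 of the 30 genes (Actn4, Flna, Flnc, Lpp, Trip6 and Vcl) and of 16.6% of all genes. The 2 motifs share no letters in these windows. A match describes the sequence and not a bound site.

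Talins and vinculin did not pass the test. Tln1, encoding the main talin that opens integrins, stood at 363, 344 and 198 CPM in wild-type and 158, 245 and 284 CPM in null libraries (log2 fold change -0.37, edgeR adjusted p = 0.479), and its sign turned with the GC and length adjustment (0.32). For Tln2, the other talin, the value of -0.45 (edgeR adjusted p = 0.314) also turned, to 0.23. Vcl, encoding vinculin, which bridges stretched talin and actin, ranged most among the wild-type libraries, at 23.4, 49.1 and 5.12 CPM, with 11.1, 9.22 and 10.2 CPM in the null libraries (edgeR adjusted p = 0.499). In the GENCODE annotation 25.5% of the exon bases of Vcl lie opposite exons of Ap3m1. Whether the reads were counted by strand is not given in the sources used here.

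In the ILK-PINCH-parvin complex none of the 5 tested genes passed in edgeR. Ilk, the pseudokinase at the centre of the complex, was below the filter, with 1, 0 and 6 reads in wild-type and 0, 17 and 5 reads in null libraries. Pooled over each genotype this is 0.401 CPM for wild type (0.161 to 0.826, 95% exact Poisson) and 0.583 CPM for null (0.366 to 0.883), far under its partners. In the annotation 76.7% of the exon bases of Ilk lie opposite exons of Taf10 and 12.9% opposite Rrp8. Taf10 had 105, 13 and 879 reads in the wild-type and 96, 3632 and 585 reads in the null libraries. The part of this overlap in the low count of Ilk was not tested.

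Lims1 encodes PINCH-1, the LIM protein that binds ILK. It stood at 202, 197 and 132 CPM in wild-type and at 380, 268 and 284 CPM in null libraries, with no overlap between the groups (log2 fold change 0.84, SE 0.28, edgeR adjusted p = 0.0873). In limma-voom, where mouse number was a random effect, Lims1 passed (0.99, adjusted p = 0.0393). Its relative Lims2 (PINCH-2) was below the filter, with 6, 1 and 21 reads against 1, 69 and 4. The parvins, which tie ILK to actin, differed among themselves. Parva had 191, 258 and 134 CPM in wild-type and 231, 257 and 275 CPM in null libraries (log2 fold change 0.45, edgeR adjusted p = 0.327). Parvb had 42.2, 98.3 and 71.6 CPM in wild-type and 28.6, 42.3 and 44.3 CPM in null libraries (log2 fold change -0.72, edgeR adjusted p = 0.163). Parvg, the parvin of blood cells, had 8.59, 6.14 and 9.24 CPM in wild-type and 18.4, 11.1 and 17.7 CPM in null libraries (log2 fold change 0.79, edgeR adjusted p = 0.211). None of the parvins passed the test.

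Per kilobase, Parvb made up 30.6, 44.8 and 50.03% of parvin message in wild-type and 18.4, 24.9 and 23.4% in null libraries. Parva made up 60.4, 51.2 and 40.7% in wild-type and 64.7, 65.7 and 63.2% in null libraries. The groups did not overlap in either share, while the summed parvin level overlapped between groups at 37.7 ± 10.3 and 38.8 ± 3.82 CPM per kilobase (SD, n = 3). For single values such as these, the smallest p that exact permutation of 3 and 3 libraries allows is 0.1, two-sided. Shares were taken in 13 families, and 7 families had a share without overlap between the groups. For Rsu1, which binds PINCH-1, null and wild-type levels gave a log2 fold change of 0.01 (SE 0.33, edgeR adjusted p = 0.989).

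**Figure D2:**
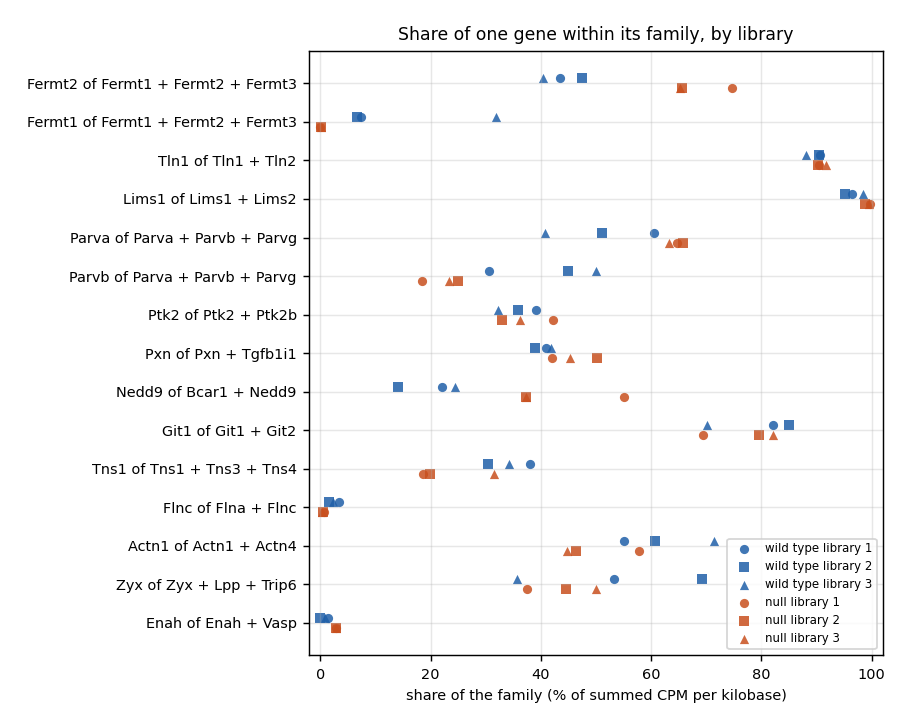
Share of a gene in its family in each library, as a percentage of the summed CPM per kilobase of exon, with wild type in blue and null in orange. The shares of Fermt2, Lims1, Parva, Pxn, Nedd9 and Enah are higher in all 3 null libraries, Lims1 and Pxn by a narrow gap. Those of Fermt1, Parvb and Flnc are lower, while Tln1, Ptk2, Git1, Tns1, Actn1 and Zyx overlap.

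Of the 10 genes for kinases and signalling scaffolds, Tgfb1i1 fell, none rose, and 9 had a log2 fold change below 0, with a median of -0.62 (-0.30 with the GC and length adjustment). Tgfb1i1 (ENSMUSG00000030782) encodes Hic-5, a paxillin relative found at adhesions of contractile cells. It stood at 164, 190 and 164 CPM in wild-type and at 58.0, 101 and 97 CPM in null libraries. Null library 1 was the lowest, and all null values lay under all wild-type values. Its log2 fold change was -0.98 (SE 0.26, edgeR adjusted p = 0.0485). It no longer passed when any 1 of the 6 libraries was left out (0.0612 to 0.136), when libraries of one mouse number were added together in both groups (0.144) or in wild type (0.0836), with no filter on low counts (0.0523) and with the GC and length adjustment (0.0523).

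Pxn, encoding paxillin, the scaffold that recruits FAK and GIT proteins, had 167, 178 and 173 CPM in wild-type and 61.7, 150 and 118 CPM in null libraries (log2 fold change -0.62, edgeR adjusted p = 0.217). Together Pxn and Tgfb1i1 stood at 52.0 ± 3.33 CPM per kilobase in wild-type and 28.7 ± 9.59 in null tumours (SD, n = 3). Pxn, like Tgfb1i1, was lower in each null library than in any wild-type library.

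The kinases had lower values in null libraries but did not pass. Ptk2, encoding FAK, had 105, 98.3 and 130 CPM in wild-type and 66.3, 76.0 and 78.9 CPM in null libraries (log2 fold change -0.62, edgeR adjusted p = 0.125). Ptk2b, encoding the FAK relative PYK2, had 103, 111 and 172 CPM against 57.1, 96.7 and 87.0 CPM (log2 fold change -0.70, edgeR adjusted p = 0.148). Src, the kinase that joins FAK, had 104, 111 and 87.7 CPM against 31.3, 69.4 and 59.2 CPM (log2 fold change -0.84, edgeR adjusted p = 0.102). For each of the 3 genes all null values lay below all wild-type values, as they did for 14.3% of all tested genes. Ptk2 kept its size with the GC and length adjustment (-0.61), while Src moved to -0.36.

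The CAS scaffolds, which are phosphorylated by FAK and Src and recruit Crk, went in different directions. Nedd9, known from melanoma and other invasive tumours, had 29.7, 18.4 and 26.9 CPM in wild-type and 83.8, 44.8 and 50.8 CPM in null libraries. All null values lay above all wild-type values, and null library 1 was the highest. The log2 fold change of 1.10 (SE 0.31) narrowly missed the threshold (edgeR adjusted p = 0.0533), and passed it when no filter on low counts was used (0.0477). Bcar1, encoding p130Cas, showed -0.33 on the same scale (edgeR adjusted p = 0.420), which turned to 0.13 with the GC and length adjustment. Per kilobase, Nedd9 made up 22.01, 14.1 and 24.4% of the sum of Nedd9 and Bcar1 in wild-type and 55.05, 37.3 and 37.2% in null libraries. That sum overlapped, at 19.6 ± 2.07 CPM per kilobase in wild-type and 21.4 ± 2.54 in null tumours (SD, n = 3). The GIT proteins and their partner beta-PIX, which regulate Rac and Arf at adhesions, did not pass. Their log2 fold changes were -0.56 for Git1, -0.74 for Git2 and -0.28 for Arhgef7 (edgeR adjusted p = 0.307, 0.170 and 0.541).

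Tensins bind integrin tails and actin in mature, elongated adhesions, and Tns1 fell. Tns1 (ENSMUSG00000055322) stood at 123, 104 and 97.9 CPM in wild-type and at 20.3, 34.9 and 61.8 CPM in null libraries. No null value reached the wild-type range, and null library 1 was the lowest. Tns1 fell with a log2 fold change of -1.43 (SE 0.34, edgeR adjusted p = 0.0297). The call did not survive leaving out wild-type library 1 or 2 or null library 1 or 2 (0.0507 to 0.0937), or adding the wild-type pair of one mouse number together (0.0527), and it was stronger when both pairs were added together (-1.82, edgeR adjusted p = 0.00403). With the GC and length adjustment the log2 fold change was -0.72 (edgeR adjusted p = 0.168). Tns3 was also lower in each null library, at 58.0, 88.8 and 88.9 CPM against 126, 154 and 122 CPM, without passing (log2 fold change -0.72, edgeR adjusted p = 0.106). Tns4, a short tensin of epithelia that lacks the actin-binding part, was low throughout, at 1.84 to 6.25 CPM (edgeR adjusted p = 0.735). The summed level of Tns1, Tns3 and Tns4 was 19.9 ± 1.80 CPM per kilobase in wild-type and 10.02 ± 2.85 in null tumours (SD, n = 3). Tns2, a tensin outside the 39 members, is not in this sum. It stood at 29.6 ± 5.03 CPM per kilobase in wild-type and 21.1 ± 1.75 in null tumours (SD, n = 3). Its log2 fold change was -0.47 (edgeR adjusted p = 0.245).

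Among the actin crosslinkers, Flnc showed the strongest decrease of any member apart from Fermt1. Flnc (ENSMUSG00000068699) encodes filamin C, the filamin of striated muscle, which also serves in stressed adhesions of other cells. It had 78, 4 and 605 reads in wild-type and 7, 173 and 19 reads in null libraries, or 60.9, 24.6 and 37.8 CPM against 6.45, 5.48 and 3.74 CPM. Every null library lay several-fold under every wild-type library. The log2 fold change was -3.14 (SE 0.37, edgeR adjusted p = 0.000614), between -3.35 and -2.79 when 1 library was left out, and -2.45 with the GC and length adjustment (0.00558). The call held in all 6 fits with 1 library left out. The summed level of 20 skeletal muscle markers, led by Acta1, was 1767, 934 and 723 CPM in wild-type and 119, 153 and 62.6 CPM in null libraries, and 14 of the 19 tested markers fell. No marker of this list was at 0 in all libraries. The part of muscle tissue in the lower Flnc was not tested.

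Flna, encoding the widespread filamin A, was the most abundant crosslinker and lower in each null library, at 925, 1006 and 1105 CPM against 1709, 1554 and 1673 CPM. It did not pass (log2 fold change -0.70, SE 0.27, edgeR adjusted p = 0.127), passed in DESeq2's Wald test (0.0252), and was at -0.11 with the GC and length adjustment. Per kilobase Flnc made up 3.44, 1.56 and 2.21% of the sum of Flna and Flnc in wild-type and 0.692, 0.542 and 0.337% in null libraries. Actn1, a non-muscle alpha-actinin that bundles stress fibres, had 209, 283 and 200 CPM in wild-type and 97.6, 137 and 118 CPM in null libraries. All null values were under all wild-type values. The log2 fold change of -0.93 (SE 0.25) lay at the threshold (edgeR adjusted p = 0.0508), and it passed with DESeq2's size factors in edgeR (0.0474), in DESeq2's Wald test (0.0207) and without wild-type library 3 (0.0392). Actn4, the other non-muscle alpha-actinin, overlapped between groups, at 189, 203 and 89.2 CPM in wild-type and 79.2, 176 and 161 CPM in null libraries (edgeR adjusted p = 0.869).

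In the zyxin family and the Ena/VASP proteins, which promote actin growth at adhesions, Enah rose and the others did not pass. Enah (ENSMUSG00000022995) encodes Mena, an actin polymerisation factor linked to invasion. It had 19, 0 and 175 reads in wild-type and 33, 937 and 163 reads in null libraries, or 14.8, 0 and 10.9 CPM against 30.4, 29.7 and 32.1 CPM. The null libraries were close together and above every wild-type library. The 0 in wild-type library 2 allows a level of up to 18.6 CPM. The log2 fold change was 1.43 (SE 0.37, edgeR adjusted p = 0.0414), and 1.76 with the GC and length adjustment (0.0194). It did not pass once wild-type library 3 (0.149) or null library 1 (0.116), 2 (0.0845) or 3 (0.136) was left out, nor with libraries of one mouse number added together in both groups (0.0856) or in DESeq2's Wald test (0.0706). Per kilobase of exon, Enah made up 2.76, 2.91 and 2.74% of Enah plus Vasp in null libraries. This share depends on the annotated exon length, 21452 bases for Enah and 2617 for Vasp. Without division by length, the null means were 30.7 CPM for Enah and 130 CPM for Vasp. Vasp, Zyx (zyxin, a tension-sensing LIM protein) and its relatives Lpp and Trip6 had log2 fold changes of -0.03, -0.17, 0.14 and 0.22 (edgeR adjusted p = 0.949, 0.770, 0.777 and 0.624). With the GC and length adjustment Vasp and Zyx were both at a value above 0 (0.13 and 0.12).

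Of the PDZ-LIM proteins, Pdlim7 fell. Pdlim7 (ENSMUSG00000021493) encodes enigma, a PDZ-LIM protein that binds tropomyosin on actin filaments. It stood at 144, 117 and 184 CPM in wild-type and at 38.7, 73.4 and 60.6 CPM in null libraries. Every null library was lower than every wild-type library. Pdlim7 fell with a log2 fold change of -1.38 (SE 0.28, edgeR adjusted p = 0.0161), and of -1.0 with the GC and length adjustment (0.0329). It was not called without null library 1 (0.0764) or 3 (0.0540). The skeletal muscle markers given beside Flnc were lower in the same libraries, as were 3 of the 6 tested smooth muscle and pericyte markers (Cspg4, Smtn and Tagln). Of these Cspg4 passed, at 49.97, 49.1 and 51.4 CPM in wild-type and 5.53, 4.28 and 5.31 CPM in null libraries (log2 fold change -3.38, edgeR adjusted p = 0.000125). The part of either cell type in the decreases of Pdlim7, Tns1 and Tgfb1i1 was not tested. Pdlim5, a relative that binds alpha-actinin, did not pass (log2 fold change 0.13, edgeR adjusted p = 0.793).

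Csrp1, a LIM protein of smooth muscle and fibroblasts that binds zyxin and alpha-actinin, had 510, 590 and 131 CPM in wild-type and 645, 415 and 606 CPM in null libraries. Wild-type library 3 stood far below the other 5 libraries, and the groups overlapped (log2 fold change 0.48, SE 0.44, edgeR adjusted p = 0.521). The summed level of 9 smooth muscle and pericyte markers, led by Acta2, was 871, 885 and 514 CPM in wild-type and 428, 639 and 593 CPM in null libraries. Sorbs3, encoding vinexin, a vinculin-binding adaptor, had 243, 221 and 303 CPM in wild-type and 113, 204 and 204 CPM in null libraries without passing (log2 fold change -0.57, edgeR adjusted p = 0.233).

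**Figure D3:**
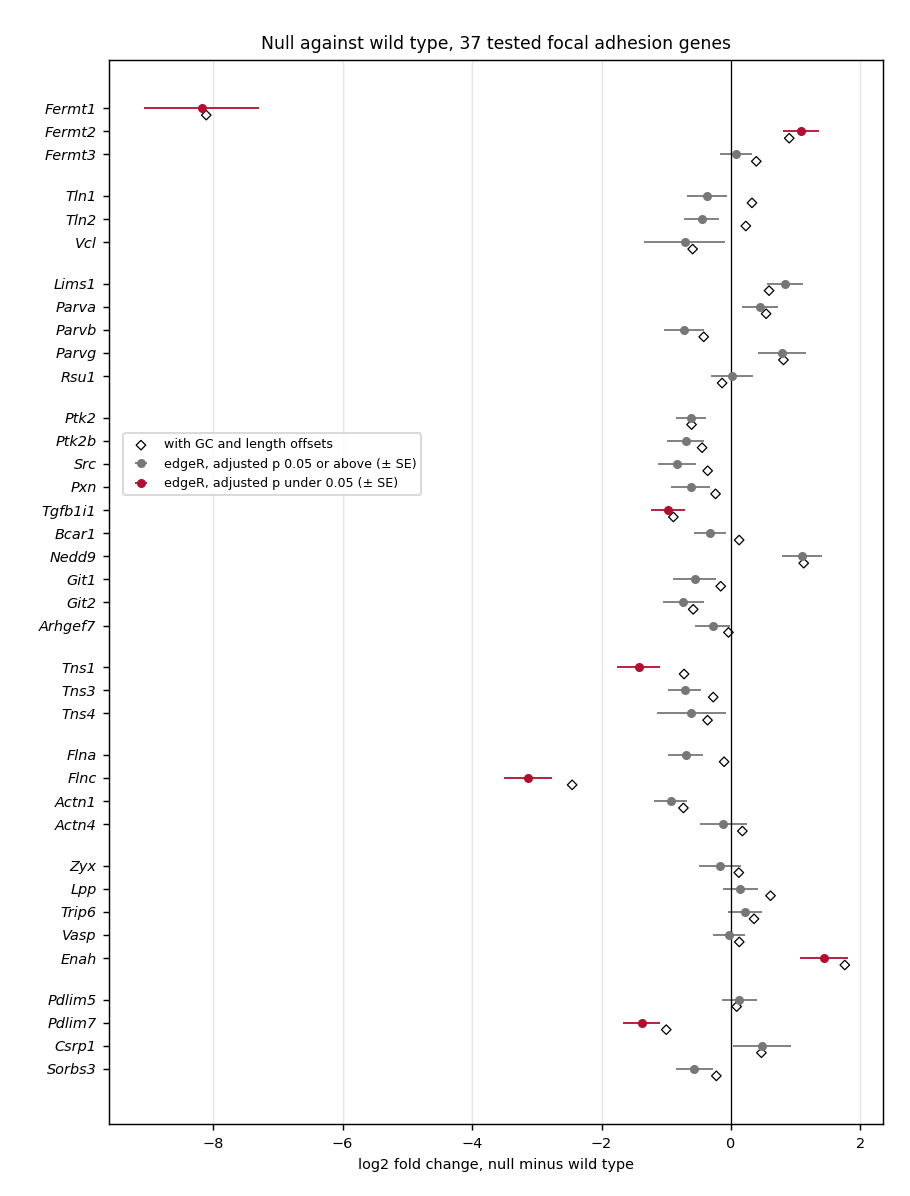
Log2 fold change, null minus wild type, of the 37 tested genes with its standard error; red marks an adjusted p under 0.05 and open diamonds the value after adjustment for GC content and transcript length. Flnc and Fermt1 lie far left under both, while Tns1 and Flna move toward 0 with the adjustment.

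Levels per kilobase of exon covered a wide range. Csrp1 was the most abundant member at 247 CPM per kilobase over the 6 libraries, followed by Flna at 141, Sorbs3 at 59.2, Lims1 at 49.9 and Vasp at 49.3. At the low end were Enah at 0.916, Lims2 at 0.873, Tns4 at 0.818 and Ilk at 0.163. The order depends on the annotated exon length, which was 21452 bases for Enah. For Ilk the overlap with Taf10 given above also applies. Csrp1 varied so much between libraries (210 ± 125 in wild-type and 284 ± 63.0 in null tumours, SD, n = 3) that in wild type it did not differ from Flna (175 ± 8.61) beyond its spread. Neighbours in the order such as Lims1, Vasp, Zyx (46.0) and Trip6 (44.2) also lay within their spread.

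All 3 null values lay above all wild-type values for 5 of the 37 tested members and below them for 13 (12 without Fermt1). Over all tested genes these shares were 16.2% and 14.3%, 30.5% in all. Null library 1 had the lowest value of the 6 in 22 of the 37 members, against 24.1% of all tested genes, and wild-type library 2 had the highest in 14, against 21.2%. Without null library 1, Fermt1 and Flnc passed in the lower direction and no member passed in the higher direction, with 4 members higher at an unadjusted p under 0.05 (edgeR). In that fit 1.38% of all genes passed at the adjusted threshold, in either direction. With all 6 libraries, 4 members were also higher at an unadjusted p under 0.05 (edgeR). There, 2978 of all 11887 tested genes had such a p in either direction.

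The members are long and rich in GC for expressed genes. Their median GC content was 53.5%, against 49.7% over tested genes, and their median transcript length 4034 bases, against 3405. Over all tested genes the median log2 fold change went from 0.17 in the decile of lowest GC to -0.33 in that of highest GC, and from 0.40 in the shortest decile to -0.30 in the longest. Of the 37 members, 8 were in the highest GC decile and 9 in the longest decile. In a fit added after the data were seen, each library's trend with GC content and length entered edgeR as an offset, and the decile medians then lay between -0.03 and 0.06. In this fit 1 member passed as higher (Enah) and 3 as lower (Fermt1, Flnc and Pdlim7), with 1.95% and 2.68% of all genes. Why the libraries differed by GC content and length was not tested.

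**Figure D4:**
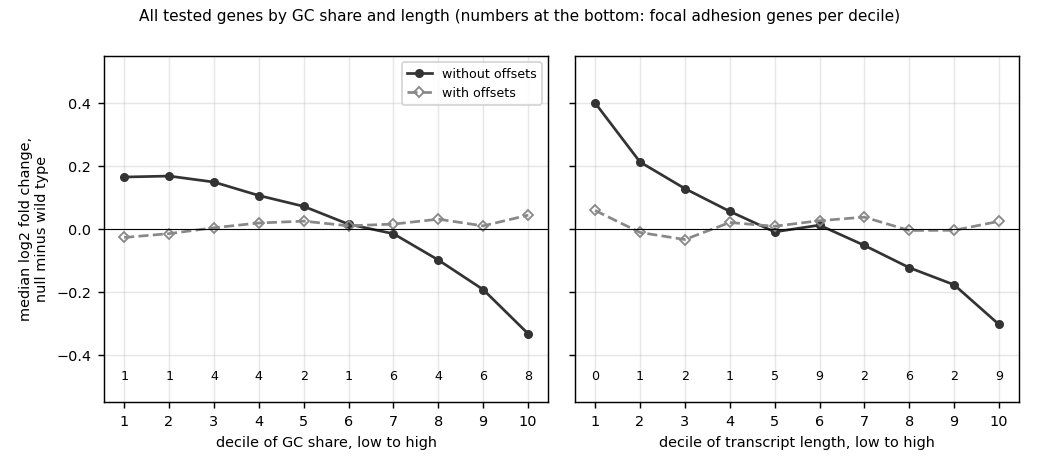
Median log2 fold change, null minus wild type, of all tested genes by decile of GC content (left) and of transcript length (right), without and with the offsets; the numbers along the bottom count the focal adhesion genes in each decile. Without offsets the medians run from 0.17 to -0.33 and from 0.40 to -0.30, and with them they stay near 0.

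Other adhesion genes outside the 39 were read from 3 lists of 71 genes. Of these 66 were tested, 1 rose and 6 fell, while 2.26% of all tested genes rose and 3.52% fell. The median log2 fold change was -0.15, and -0.03 with the GC and length adjustment. Over all tested genes it was 0.01 in both fits. Of 17 tested adaptors and recruiters, 1 rose and 2 fell. Of 23 tested genes of Cas, Crk and Rac signalling none passed in edgeR. An unadjusted edgeR p under 0.05 was found for 6 of the 23, and for 2978 of all 11887 tested genes. Of 26 tested actin crosslinkers, LIM and myosin genes none rose and 4 fell.

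The 4 that fell were Sorbs2, Mylk, Pdlim3 and Actn3. Sorbs2, a vinexin relative of stress fibres and Z-discs, had 26.5, 30.7 and 32.4 CPM in wild-type and 5.53, 5.58 and 4.72 CPM in null libraries (log2 fold change -2.51, edgeR adjusted p = 0.00117). Mylk, the kinase that activates non-muscle and smooth muscle myosin, had 95.3, 135 and 115 CPM against 44.2, 35.8 and 37 CPM (log2 fold change -1.54, edgeR adjusted p = 0.00404). Both passed in all 6 fits with 1 library left out. The muscle genes Pdlim3 and Actn3 had log2 fold changes of -3.54 and -3.64 (edgeR adjusted p = 0.00792 and 0.0283), and Actn3 also belongs to the skeletal muscle markers, whose part in these decreases was not tested. Pdlim3 did not pass without null library 1 (0.0517), nor in limma-voom when mouse number was a random effect (0.166). Actn3 passed in 2 of the 6 fits, and did not pass in limma-voom with that random effect (0.356) or when both pairs were added together (0.169). Its log2 fold change was -2.12 when wild-type library 1 was left out and -6.04 when null library 2 was.

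Of the adaptors, Ajuba, a zyxin relative, and Fblim1, which encodes the filamin- and kindlin-binding migfilin, fell. Fblim1 had 32.8, 36.9 and 32.6 CPM in wild-type and 6.45, 14 and 15.1 CPM in null libraries (log2 fold change -1.38, edgeR adjusted p = 0.0312). Ajuba changed by -1.02 on the log2 scale (edgeR adjusted p = 0.0303). Itgb1bp1, encoding ICAP-1, which binds the beta-1 integrin tail and holds the receptor inactive, rose from 54.7, 18.4 and 38.1 CPM to 120, 79.5 and 93.3 CPM (log2 fold change 1.21, edgeR adjusted p = 0.0357). These 3 calls were unsteady: with 1 library left out, Fblim1 passed in 1 of 6 fits, and Ajuba and Itgb1bp1 in 2 of 6 each. With the GC and length adjustment Ajuba and Itgb1bp1 did not pass (edgeR adjusted p = 0.108 and 0.0988).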

How the data were processed

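RNA from 6 tumour libraries, 3 wild type and 3 null, was measured by sequencing. For each library the authors deposited raw read counts by Ensembl gene, whole numbers without normalization. Per the submitters' processing notes TopHat2, Cuffdiff, DESeq2 and mouse build mm9 were used (roles and versions not stated). How reads were counted, and whether by strand, is not given in the sources used here. Reads in no gene, in several genes or with several alignments stayed out of totals and tests (4.63 to 12.0%, 1.72 to 2.11% and 32.9 to 40.0% of listed reads).

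Symbols matched 32919 of 37991 identifiers in GENCODE M21 (GRCm38), which also gave exon length, GC content and overlaps. Counts were tested in R 4.3.3 with edgeR 4.0.16 (quasi-likelihood, robust, TMM, default expression filter, Benjamini-Hochberg at 0.05 over all tested genes). The same edgeR code was run on simulated counts of independent libraries. That simulation had no shared mice and no trend with GC content or length, so it does not bear on either. Alternatives were DESeq2 1.42.0 size factors and Wald test, no filter, 10 CPM in 3 libraries, each library left out, shared mouse numbers summed, limma-voom 3.58.1 with mouse number as a random effect (correlation 0.597), and GC and length offsets, which were added after the data were seen. Library numbers follow the order of the samples and only name a library. The labels do not say what the letters L and R after the mouse numbers mean.

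All 39 members were named, with full statistics for those that passed and the kindlins. Of other adhesion genes, those that passed were named, and Tns2 beside the tensins. Of a marker list, its most abundant gene was named. Members, lists and markers were chosen with earlier results of these data known. The summed levels of other marker lists in wild-type against null libraries were 117 to 139 and 182 to 228 CPM for platelets (led by Pf4) and 174 to 252 and 226 to 306 CPM for endothelium (led by Egfl7); 1 further list is not reported here. The keratinocyte, leukocyte, smooth muscle and fibroblast lists were led by Perp, Laptm5, Acta2 and Col3a1.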

Additional observations from a re-analysis of the deposited data

How the results depend on the processing

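Of 514 values of single members under an alternative, 476 kept their side of the threshold, 32 lost a call, 6 gained one, and no called gene changed sign. Without a call, the sign changed in 30 values, over 12 members. Over all genes the count of 688 ranged from 179 (null library 1 left out) to 855 with 1 library left out (281 for wild-type library 3, 225 for null library 3), and was 1156 with mouse number as a random effect (641 higher, 515 lower). The 2 members that rose became 3 without a filter (with Nedd9) and with the random effect (with Lims1), 1 in DESeq2's Wald test, 1 with the wild-type pair summed, 1 with GC and length offsets, 0 with both pairs summed (4 at an unadjusted p under 0.05, edgeR), and 0 to 1 with 1 library left out. The 5 that fell became 6 with DESeq2 size factors (with Actn1), 7 in DESeq2's Wald test (with Actn1 and Flna), 4 without a filter and with both pairs summed, 3 with the wild-type pair summed, 3 with the offsets, and 2 to 5 with 1 library left out (2 without null library 1, 3 without wild-type library 1 or 2 or null library 2 or 3). Without Fermt1, the 4 that fell became 2 with the wild-type pair summed, 2 with the offsets, and 1 to 4 with 1 library left out. The member median moved from -0.45 to -0.11 with the offsets, and without Fermt1 from -0.41 to -0.0723. The 1 other adhesion gene that rose became 3 in DESeq2's Wald test, 2 without a filter, 4 with the random effect, 2 with the offsets, 0 with both pairs or the wild-type pair summed (5 unadjusted in each, edgeR), and 0 to 2 with 1 library left out. Beside these unadjusted counts, 2978 of all 11887 genes in the main fit had an unadjusted edgeR p under 0.05, in either direction. The 6 other adhesion genes that fell ranged from 2 to 7 (2 without null library 1, 3 without null library 3). The cause was not tested, except that the offsets take out the trends with GC content and length by construction. No paired analysis was possible because the library numbers follow the order of the samples and pair nothing across groups. Depth limits low genes: in wild-type library 2 a floor of 3 reads is 18.6 CPM, above the levels of Fermt1, Enah, Tns4, Parvg, Lims2 and Ilk there, and Nedd9 had 3 reads.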
